A study of Mus musculus with 8 samples.

Results

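The VEGF and angiopoietin ligands and receptors were examined in mouse lung as 10 genes, Vegfa, Vegfc, Kdr, Flt1, Flt4, Nrp1, Angpt1, Angpt2, Tek and Tie1. They were taken by gene name from the array annotation with all of their probes, and they are 10 of 36153 gene names on the array. In all 13 probes carry these names, and 12 of them passed a filter on dim signal, at least 1 for each gene. The samples were whole lungs of C57BL/6 mice, 4 wild-type and 4 with a lung-specific knockout of GGPPS1 (gene symbol Ggps1), the enzyme that makes the geranylgeranyl lipid attached to many small GTPases. Every mouse had received LPS, the bacterial endotoxin, 12 h before, so the comparison is between genotypes after LPS, and mice without LPS were not analysed here. The promoter or cell type that drives the knockout and the age of the mice are not given in the sources used here.

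VEGF-A and VEGF-C are secreted ligands that act on endothelial cells through the receptor tyrosine kinases Flt1, Kdr and Flt4, with neuropilin-1 (Nrp1) as a co-receptor. VEGF-A loosens the junctions between endothelial cells, and in the lung the alveolar epithelium is a main source of it. Angiopoietin-1, made by cells around the vessel, activates the receptor Tek (also called Tie2) and keeps the endothelial barrier closed, while angiopoietin-2 is stored and released by endothelial cells and can oppose it. Tie1 is a relative of Tek with no strong ligand of its own and modulates Tek.

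Tek and Tie1 are related kinases, and their probes, which read coding sequence near the end of each receptor, are shown to let their sequences be compared. Over the 57 bases that align without a gap, 39 were identical (68.4%), with a longest identical run of 8. Capitals mark the identical bases. The probe coordinates are those of the array files on build mm9, and no annotation of that build was used here. Tek lay at chr4:94540624-94540683 on the plus strand and Tie1 at chr4:118144132-118144191 on the minus strand.
Tek: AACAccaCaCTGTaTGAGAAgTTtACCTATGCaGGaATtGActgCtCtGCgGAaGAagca
Tie1: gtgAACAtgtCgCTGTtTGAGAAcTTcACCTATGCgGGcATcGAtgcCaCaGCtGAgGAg

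The coding probe of Nrp1 (chr8:131026650-131026709, plus strand) is shown as well. This gene was chosen because it had the largest mean difference among the members at the brightest probe of each gene. The Nrp1 probe is printed without capitals because no part of it was compared.
Nrp1: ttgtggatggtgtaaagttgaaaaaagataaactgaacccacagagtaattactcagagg

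None of the 10 genes passed the test between knockout and wild-type lungs. The means of Vegfa, Nrp1, Angpt1, Tek, Tie1 and Angpt2 were lower in the knockout lungs and those of Flt1, Flt4, Kdr and Vegfc higher. Levels are log2 signal minus each array's own 75th percentile, and differences are knockout minus wild-type on that log2 scale. The test was limma with Benjamini-Hochberg adjustment over all 24464 genes measured and a threshold of 0.05, at which 0 of 10 members and 0.0613% of all genes (15) were called. At an unadjusted p under 0.05, 1 member (Vegfa) and 23.6% of all genes passed, and the 4 values of a group lay apart from the other 4 for 0 members and 15.3% of all genes. The median difference was -0.30 over the members and -0.03 over all genes. All 10 genes were well above background on all 8 arrays.

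**Figure D1:**
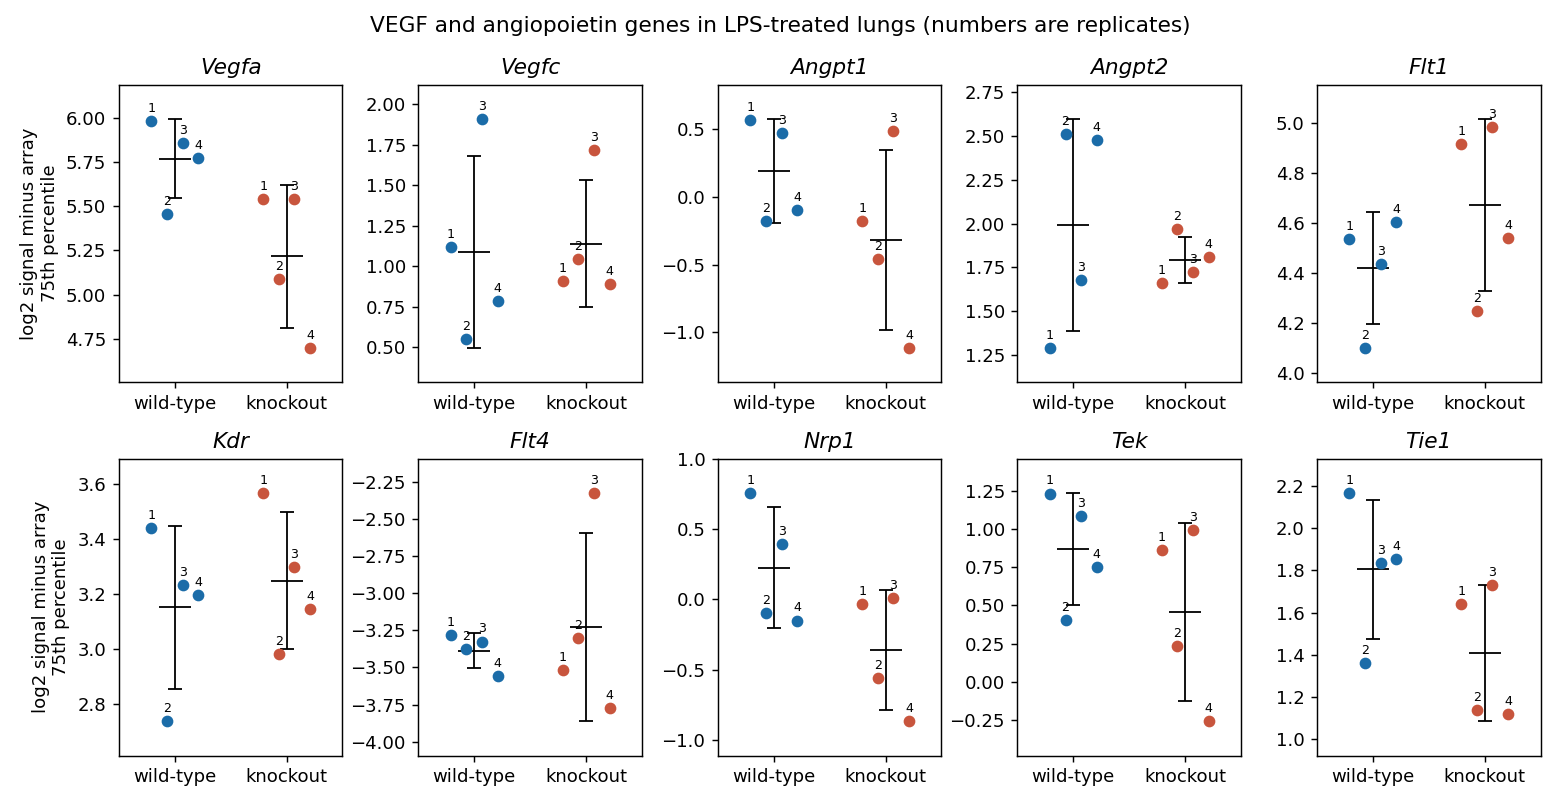
Log2 signal minus the array's own 75th percentile (vertical axis, a separate scale for each gene) in wild-type and knockout lungs, with points numbered by replicate and bars giving the mean ± SD (n = 4 per group). The groups overlap for all 10 genes.

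The following facts of the series touch these results. A single slide carried the 8 arrays, wild-type lungs in 1 row and knockout lungs in the other, so slide position and genotype cannot be told apart. The share of spots well above background was 61.5% to 65.3% on wild-type and 58.1% to 61.6% on knockout arrays, and its part in the results was not tested. Ggps1 mRNA itself differed by -0.06 ± 0.068 (SE; limma, adjusted p = 0.608), and since the deleted part of the gene is not given, this does not check the genotype labels. Cardiac muscle markers varied widely, from a mean level of -1.14 to 3.36, and were highest in wild-type replicate 2 and knockout replicates 2 and 4. As checks of the tissue, 20 of 20 pan-endothelial and 18 of 18 alveolar type 1 markers were measured.

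Among the ligands, Vegfa had the lowest p, and its knockout level was 68.2% of wild-type (95% confidence interval 48.8% to 95.3%, not adjusted). Its brightest probe (chr17:46154387-46154446) gave 5.98, 5.46, 5.86 and 5.77 for the wild-type lungs, replicates 1 to 4 in that order here and throughout, and 5.54, 5.09, 5.54 and 4.70 for the knockout lungs. Every knockout lung was below the wild-type mean, but only knockout replicates 2 and 4 were below the lowest wild-type lung. The difference of -0.55 ± 0.21 (SE) was not called (limma, unadjusted p = 0.0298, adjusted p = 0.169). A second Vegfa probe read 3.89, 3.33, 3.60 and 3.64 in wild-type and 3.45, 2.80, 3.34 and 2.43 in knockout lungs, a difference of -0.61 (limma on each probe, adjusted p = 0.176). Both probes ordered knockout replicate 4 lowest and wild-type replicate 1 highest.

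Vegfc, the ligand best known for lymphatic vessel growth, did not separate the groups in either direction. Its probe (chr8:55271533-55271592) read 1.12, 0.55, 1.91 and 0.78 in wild-type lungs and 0.91, 1.04, 1.72 and 0.89 in knockout lungs. The highest lung of each group was replicate 3, and the other lungs of the groups were interleaved. The estimate was 0.05 ± 0.31 (SE; limma, adjusted p = 0.94), with a 95% confidence interval from -0.67 to 0.77, so differences of that size in either direction were not excluded by these samples.

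Angpt1, the barrier-guarding ligand of Tek, was read by a probe at chr15:42256335-42256394. Its levels were 0.56, -0.18, 0.47 and -0.10 in wild-type lungs and -0.18, -0.46, 0.49 and -1.11 in knockout lungs. Knockout replicate 3 stood beside the highest wild-type lungs, and the other knockout lungs were at or below the lowest wild-type lung. The mean difference of -0.51 ± 0.34 (SE) did not pass (limma, adjusted p = 0.384).

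Angpt2, the ligand that can displace Angpt1 from Tek, had a wider spread in wild-type than in knockout lungs, which was not tested. Its probe (chr8:18691458-18691517) read 1.29, 2.51, 1.68 and 2.48 in wild-type lungs and 1.66, 1.97, 1.73 and 1.81 in knockout lungs. The SD was 0.60 in wild-type and 0.13 in knockout lungs, and all knockout values lay inside the wild-type range. Its difference was -0.20 ± 0.27 (SE; limma, adjusted p = 0.685). Wild-type replicate 2, the lowest wild-type lung for 7 of the 10 members, was the highest for Angpt2.

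The balance of the angiopoietins was followed as the log2 ratio of Angpt2 to Angpt1 in each lung, set to a mean of 0 in wild-type. It was -1.07, 0.89, -0.59 and 0.78 in the wild-type lungs and 0.04, 0.63, -0.56 and 1.12 in the knockout lungs. The knockout mean of 0.31 was smaller than the SD of either group (0.98 in wild-type and 0.73 in knockout lungs). The ratio of Vegfa to Angpt1, set to wild-type in the same way, ran from -0.19 to 0.29 in wild-type and from -0.52 to 0.23 in knockout lungs, with a knockout mean of -0.04.

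**Figure D2:**
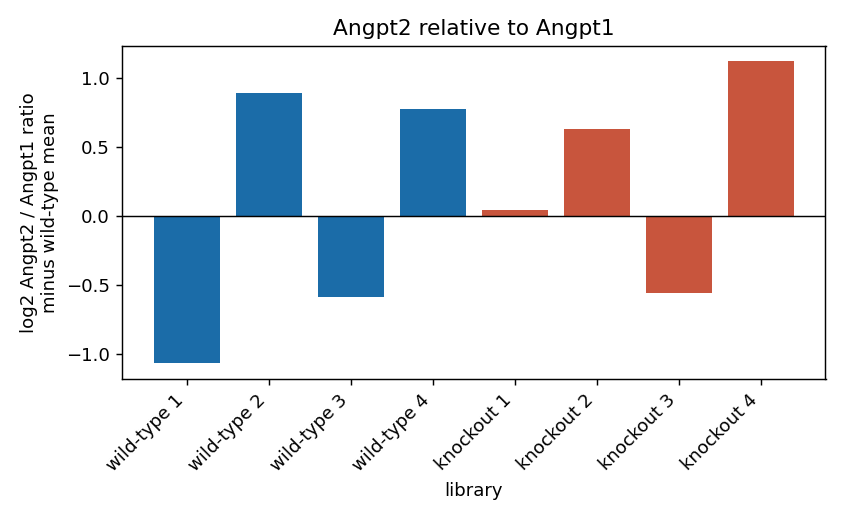
Log2 ratio of Angpt2 to Angpt1 minus the wild-type mean (vertical axis) in each of the 8 libraries, 1 bar per library, with wild-type in blue and knockout in red. Each group holds bars on both sides of 0 and the ranges overlap.

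The means of the VEGF receptor kinases were slightly higher in the knockout lungs, and none was called. Flt1, which binds VEGF-A tightly, read 4.54, 4.10, 4.44 and 4.60 in wild-type and 4.91, 4.25, 4.98 and 4.54 in knockout lungs at its bright probe (chr5:148373791-148373850). Knockout replicates 1 and 3 were above every wild-type lung, and knockout replicate 2 was among the lowest. The difference of 0.25 ± 0.19 (SE) did not pass (limma, adjusted p = 0.431). A second Flt1 probe (chr5:148465976-148466035) was well above background on 1 wild-type and 1 knockout array, and was left out.

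Kdr, the main signalling receptor for VEGF-A, read 3.44, 2.74, 3.23 and 3.20 in wild-type lungs and 3.57, 2.98, 3.30 and 3.14 in knockout lungs at its brightest probe (chr5:76329309-76329368). In both groups replicate 2 was the lowest lung. The difference was 0.10 ± 0.18 (SE; limma, adjusted p = 0.766). A second probe (chr5:76330395-76330454) ran from 2.46 to 2.62 in wild-type and from 2.43 to 2.66 in knockout lungs, with a difference of -0.04. The probes thus disagreed in spread and in the sign of a difference that neither called.

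Flt4, the receptor for VEGF-C, read -3.28, -3.38, -3.33 and -3.56 in wild-type and -3.52, -3.30, -2.33 and -3.77 in knockout lungs (chr11:49465646-49465705). Knockout replicate 3 alone was far above the rest, and the difference of 0.16 ± 0.29 (SE; limma, adjusted p = 0.765) was -0.15 without it.

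Nrp1, which presents VEGF-A to Kdr, had the largest mean difference of the members at the brightest probe of each gene. This difference was -0.59 ± 0.27 (SE) and did not pass the test (limma, adjusted p = 0.231). The second Vegfa probe differed by -0.61. The Nrp1 probe shown above read 0.76, -0.10, 0.39 and -0.15 in wild-type lungs and -0.03, -0.56, 0.01 and -0.87 in knockout lungs. Knockout replicates 2 and 4 were below every wild-type lung, while knockout replicates 1 and 3 lay inside the wild-type range.

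The Tie receptors were both lower in mean in the knockout lungs. Tek read 1.23, 0.41, 1.08 and 0.75 in wild-type and 0.86, 0.23, 0.99 and -0.26 in knockout lungs. Tie1 read 2.17, 1.36, 1.83 and 1.85 in wild-type and 1.64, 1.14, 1.73 and 1.12 in knockout lungs. For each of them knockout replicates 2 and 4 were below the lowest wild-type lung, and knockout replicates 1 and 3 lay inside the wild-type range. The differences were -0.41 ± 0.30 for Tek (limma, adjusted p = 0.43) and -0.40 ± 0.21 for Tie1 (limma, adjusted p = 0.286), both with the SE.

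**Figure D3:**
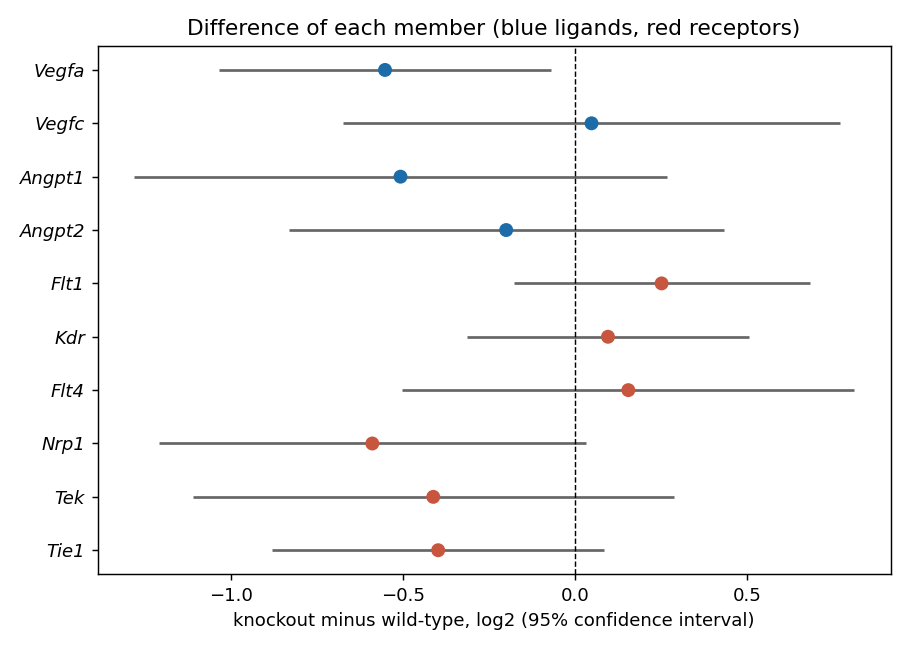
Difference between knockout and wild-type lungs on the log2 scale (horizontal axis) for each member, with points for the estimate, blue for ligands and red for receptors, and lines for the 95% confidence interval from limma, not adjusted for the number of genes. The interval of Vegfa (-1.03 to -0.07) lies below 0 and those of the other 9 genes include 0.

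Several members had the same low libraries, in both groups. The 3 lowest libraries were wild-type replicate 2 and knockout replicates 2 and 4 for 4 members, Vegfa, Kdr, Tek and Tie1. Knockout replicate 4 was the lowest knockout lung for 7 members, and knockout replicate 3 the highest for 8. These 3 libraries also had the highest cardiac muscle marker means, 2.97, 3.36 and 2.99, against -1.14 to 1.28 in the other 5. In bulk tissue, fewer cells of a type and less RNA per cell cannot be told apart.

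Without these 3 libraries, a comparison of 3 wild-type with 2 knockout lungs chosen after the data were seen, 0 of 10 members were called. The differences were then -0.33 for Vegfa, -0.34 for Nrp1, -0.16 for Angpt1, -0.10 for Tek, -0.27 for Tie1 and -0.12 for Angpt2, each closer to 0. They were 0.42 for Flt1, 0.47 for Flt4 and 0.14 for Kdr, each farther from 0, and 0.04 for Vegfc. Of the 16 cardiac markers 15 were higher in mean in the knockout lungs and 0 were called. With their mean as a covariate in all 8 lungs, 0 members were called and Vegfa (-0.30), Nrp1 (-0.27), Angpt1 (-0.13), Tek (-0.03) and Tie1 (-0.10) lay closer to 0. Angpt2 (-0.48), Vegfc (0.31), Kdr (0.32), Flt4 (0.35) and Flt1 (0.49; limma, adjusted p = 0.0551) lay farther from 0. With this covariate far more genes over the whole array were called than as reported, as counted in the last section.

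**Figure D4:**
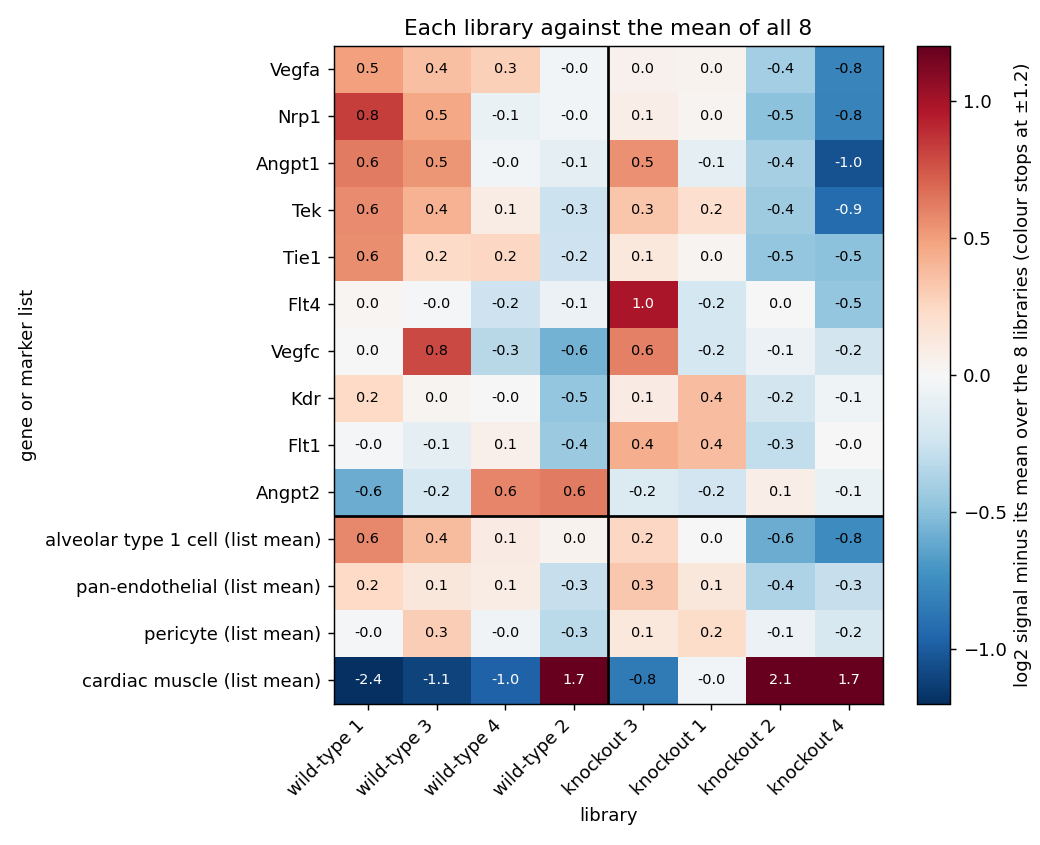
Log2 signal of each member, and the mean of 4 marker lists, minus the mean over all 8 libraries (colour, and the number in each cell), by library along the horizontal axis with wild-type on the left. Knockout replicate 4 is low for Vegfa, Nrp1, Angpt1, Tek and Tie1, where the alveolar type 1 mean is also low (a level of 2.13 before this subtraction).

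Markers of alveolar type 1 cells, the thin epithelial cells of the gas-exchange surface, were lower in mean in the knockout lungs for 18 of 18 genes, with 0 called and a median difference of -0.41 (all genes, -0.03). Their mean level was 3.47, 2.93, 3.27 and 2.99 in wild-type and 2.90, 2.29, 3.14 and 2.13 in knockout lungs. With this mean as a covariate the differences were -0.11 for Vegfa, -0.01 for Nrp1, 0.22 for Angpt1, 0.26 for Tek and 0.02 for Tie1, so the last 3 changed sign. The other 5 moved away from 0, to -0.57 for Angpt2, 0.57 for Flt1, 0.62 for Flt4, 0.37 for Kdr and 0.46 for Vegfc, and 0 members were called. The covariate itself was lower in the knockout group, and the part of these cells in the results was not tested. Alveolar type 2 markers were higher for 3 and lower for 8 of 11, with 0 called and a median of -0.25. At an unadjusted limma p under 0.05, 5 of these 11 were lower and 0 higher. Of the 18 type 1 markers, 8 were lower and 0 higher at that cut-off. It was passed by 23.6% of all genes, in either direction.

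Endothelial markers were split between the directions. Of 20 pan-endothelial markers 9 were higher and 11 lower in mean in the knockout lungs, with 0 called and a median difference of -0.05. Their mean ran from 2.73 to 3.25 in wild-type and from 2.64 to 3.33 in knockout lungs. With it as a covariate, Vegfa differed by -0.46 (limma, adjusted p = 0.058), Tie1 by -0.29 (limma, adjusted p = 0.0707) and Flt1 by 0.34 (limma, adjusted p = 0.0556), and 0 members were called. This covariate too called far more genes over the whole array than the processing reported, as counted in the last section. Among subtypes, 3 of 10 capillary, 3 of 10 arterial or venous and 2 of 3 measured lymphatic markers were higher in mean, and 0 were called. Pericyte markers, of cells that make Angpt1, were higher for 6 and lower for 5 of 11, with 0 called and a median difference of 0.03. Fibroblast markers were higher for 3 and lower for 8 of 11, with 0 called and a median of -0.35. The part of pericytes and fibroblasts in the Angpt1 values was not tested.

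Among the endothelial genes named by their p, Calcrl, the receptor for adrenomedullin, had the largest difference. The wild-type lungs averaged -0.84 ± 0.49 and the knockout lungs -2.26 ± 0.37 (SD, 4 lungs each). The groups did not overlap, as for 15.3% of all genes, and the gene did not pass (limma, adjusted p = 0.0626). Vwf, which is stored with Angpt2 in endothelial granules, averaged 5.92 ± 0.23 and 5.44 ± 0.16 (SD, n = 4 per group; limma, adjusted p = 0.1). Aplnr, the apelin receptor and a capillary marker, differed by -0.72, and Gpihbp1, the next capillary marker by p, by 0.46. Lyve1, a lymphatic marker, differed by 0.37, and Mmrn1, the next lymphatic marker by p, by -0.25. None of these passed the threshold. Platelet markers were lower for 12 of 12 genes (median -1.03, 1 called, Gp1ba), and their part in the member values was not tested.

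Around the ligands, the list of other VEGF and PDGF family genes held 8 measured genes, of which 3 were higher and 5 lower in mean, 0 called (0.0613% of all genes were), with a median of -0.23. The smallest p was that of the platelet-derived growth factor Pdgfa (mean 5.43 ± 0.08 against 5.09 ± 0.12 in the knockout, SD of 4 lungs; limma, adjusted p = 0.0784). Pdgfd differed by -0.76 (limma, adjusted p = 0.143), Pdgfb, the ligand that recruits pericytes, by -0.35 (limma, adjusted p = 0.144) and Pdgfc by 0.73. Vegfb, Pgf, Figf (VEGF-D) and Nrp2 were added for their roles after their values were seen and differed by 0.12, 0.15, -0.35 and -0.11, with 0 called. Of 5 measured angiopoietin-like genes 3 were higher and 2 lower, with 0 called and a median of 0.03. Angptl4, which inhibits lipoprotein lipase, differed by 0.30 ± 0.10 (SE; limma, adjusted p = 0.15).

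Downstream of the VEGF receptors, 10 of 27 measured genes were higher and 17 lower in mean, with 0 called and a median of -0.05. Prkcb, a protein kinase C that signals below Kdr, read 2.85, 3.18, 2.96 and 2.79 in wild-type and 1.96, 2.28, 2.09 and 1.80 in knockout lungs. The groups did not overlap, as for 15.3% of all genes. The difference of -0.91 ± 0.13 (SE) lay just outside the threshold (limma, adjusted p = 0.0569). Nos3, the endothelial nitric oxide synthase, ran from 2.86 to 3.03 in wild-type and read 3.71, 3.39, 3.31 and 4.27 in knockout lungs. It also had no overlap and did not pass, at 0.69 ± 0.20 (SE; limma, adjusted p = 0.104). Map2k1, the kinase MEK1, and Ptk2, the focal adhesion kinase, differed by -0.35 and -0.45 and did not pass. Leukocytes also express Prkcb. Monocyte and macrophage markers were lower for 11 of 11 measured genes (median -0.84, 0 called). Of these, 9 had an unadjusted limma p under 0.05, as did 23.6% of all genes. The mean of these markers ran from 3.29 to 3.72 in wild-type and from 2.37 to 3.14 in knockout lungs. Their part in the values of these lists was not tested. Neutrophil markers were split, higher for 5 and lower for 6 of 11 measured genes, with 0 called and a median of -0.04.

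The list for Tek signalling also held the phosphatase of Tek, integrins and proteases, so not all of it lies downstream of Tek. Of its 15 measured genes, 4 were higher and 11 lower in mean, with 0 called and a median of -0.16. The smallest p was that of the adaptor Crk, at -0.28 ± 0.12 (SE; limma, adjusted p = 0.201). Ptprb, the endothelial phosphatase that switches Tek off and which was added for its role after its value was seen, differed by -0.16 ± 0.20 (SE; limma, adjusted p = 0.666).

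The hypoxia factors that control Vegfa transcription were higher for 6 and lower for 3 of 9 genes, with 0 called and a median of 0.07. Egln3, an oxygen-sensing prolyl hydroxylase that marks HIF for destruction and is itself induced by HIF, read 0.86, 0.96, -0.13 and 0.26 in wild-type and -1.17, -1.02, -1.46 and -1.62 in knockout lungs. Every knockout value was below every wild-type value, and 15.3% of all genes were likewise without overlap, in either direction. At -1.81 ± 0.26 (SE) Egln3, named for the smallest p of its list, lay just outside the threshold (limma, adjusted p = 0.0569). Egln2, a related hydroxylase, and Vhl, which targets HIF for degradation, differed by 0.38 and 0.18, and Hif1a by -0.31, none past the threshold.

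Of 15 measured genes that VEGF induces or that mark the tip cells of sprouts, 6 were higher and 9 lower in mean, with 0 called and a median of -0.30. Dll4, the Notch ligand of tip cells, averaged -0.98 ± 0.08 in the wild-type and -1.41 ± 0.21 in the knockout lungs (SD, 4 lungs each). Its groups did not overlap, as for 15.3% of all genes, and it did not pass (limma, adjusted p = 0.0926). Hlx and Plaur, the urokinase receptor, differed by -0.47 and -0.46, and the chemokine receptor Cxcr4 by -1.07, none past the threshold. Plaur and Cxcr4 are also leukocyte genes. The monocyte and macrophage markers given above, a list that shares Nr4a1 with this one, were lower for 11 of 11 genes. The neutrophil markers given above were higher for 5 and lower for 6 of 11. Endothelial junction and permeability genes were higher for 10 and lower for 12 of 22, with 0 called and a median of -0.03. Cdh5, the junction cadherin, differed by -0.02 and Cldn5, the tight junction claudin, by 0.37, both named for their role after their values were seen. Within the naming rule, Rap1a, a small GTPase of the junctions, differed by -0.59, Sphk1, which makes sphingosine-1-phosphate, by 0.43, the gap junction gene Gja5 by -0.69 and the caveolar gene Cav1 by -0.42, none past the threshold.

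For each member the genes with the most similar values were taken by Pearson r over the 8 samples, as a description, since 24464 genes were searched and the samples share the group difference. For Vegfa they were Foxi2 (r = 0.997), Cog4 and Arl6ip1, for Vegfc Gcc2 (0.958), Cx3cl1 and Cdc42ep3, and for Kdr Nmur2 (0.977) and Arl4d. For Flt1 they were Epha2 (0.982), Eml1 and Nup85, for Flt4 Dpt (0.96), Wipi1 and Pcp2, and for Nrp1 Cdkn1c (0.991), Emilin1 and Ptp4a3. For Angpt1 they were Clec1a (0.983), Cyp4b1 and Brf1, and for Angpt2 Picalm (0.992), Eid3 and Ghitm. Tek was nearest to Fam115a (0.995), Cdk14 and Antxr1, and Tie1 to Hdgfrp2 (0.991), Aco1 and Tmem81. No member was among the nearest 3 of another.

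Tek and Tie1 had the same 3 lowest libraries, a trait they shared with Vegfa and Kdr. The 250 bases before the annotated starts of Tek and Tie1 are shown, from RefSeq on GRCm38.p6, a later build than that of the probes. Of the 10 members 8 had such a window, with 9 windows in all. Capitals mark GGAA, the core of ETS factor sites, or its reverse complement. Tek lies at chr4:94739039-94739288 on the plus strand and Tie1 at chr4:118489850-118490099 on the minus strand.
Tek: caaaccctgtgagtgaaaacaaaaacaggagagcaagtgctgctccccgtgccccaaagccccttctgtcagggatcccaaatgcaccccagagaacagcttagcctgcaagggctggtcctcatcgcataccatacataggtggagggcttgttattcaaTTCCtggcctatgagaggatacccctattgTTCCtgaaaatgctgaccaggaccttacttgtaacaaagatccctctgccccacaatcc
Tie1: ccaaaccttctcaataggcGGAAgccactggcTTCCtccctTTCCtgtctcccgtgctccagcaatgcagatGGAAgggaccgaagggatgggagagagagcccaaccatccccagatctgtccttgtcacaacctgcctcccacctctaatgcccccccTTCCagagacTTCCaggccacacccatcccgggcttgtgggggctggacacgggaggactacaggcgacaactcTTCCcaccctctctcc
GGAA was found 2 times before Tek and 7 times before Tie1, on either strand. Of 32851 windows of this length 93.4% held it at least once, with a median of 3 matches. In 76.8% there were 2 or more, as before Tek, and in 3.82% there were 7 or more, as before Tie1. The window of Kdr held it 4 times and those of Vegfa 6 and 2 times. The hypoxia response core ACGTG and the GATA motif AGATAA, also searched on both strands, were found in neither the Tek nor the Tie1 window. They were found in 16.6% and 9.99% of all windows. None of these motifs contains another. A match is a run of letters and not a binding site.

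**Figure D5:**
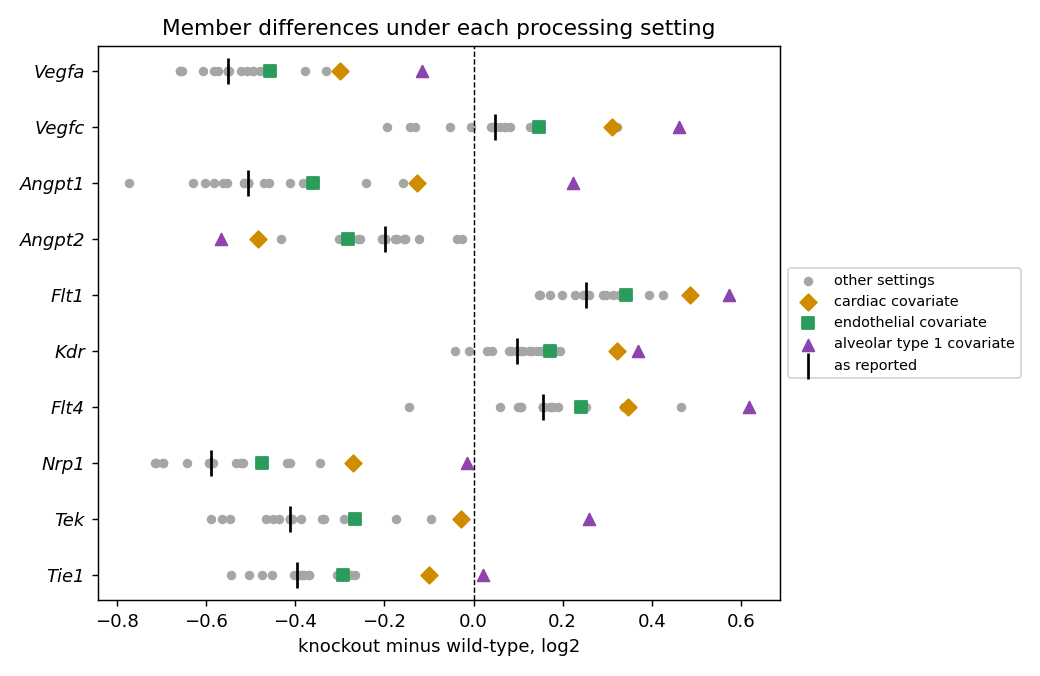
Difference between knockout and wild-type lungs on the log2 scale (horizontal axis) for each member, as reported (black line), with 3 marker means as covariates (coloured symbols) and under the other processing settings (grey). Angpt1, Tek and Tie1 cross 0 with the alveolar type 1 covariate, at 0.22, 0.26 and 0.02.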

How the data were processed

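Whole-lung RNA of 8 mice was measured on single-colour arrays with 60-base probes. The deposited scanner files give intensity per spot, extracted by Agilent Feature Extraction 10.7.1.1 (source: the submitters' processing notes). The authors' deposited table is in log2 units, with a median of 5.63 in every column and r of 0.999 or above with log2 processed signal; its centring is not stated. Gene names and mm9 coordinates are other columns of the deposited files. Control and outlier spots were left out, spots of a probe averaged, and each array's own 75th percentile subtracted from log2 processed signal. Probes well above background on 3 of 4 arrays of a group were kept, and the brightest per gene name was tested with limma 3.58.1 in R 4.3.3 (lmFit, eBayes, two-sided, Benjamini-Hochberg). The test was checked on simulated data. The number of arrays limits the precision. Each group had 4 mice by the series' own description, and p-values measure the spread between these samples. Members, gene lists, covariates and alternatives were chosen with earlier results of these data known. The naming rule took up to 4 genes per pathway list and up to 3 per endothelial list by smallest p; not every gene it allows is named, a few items are not reported here, and genes outside it are marked in the text. The probes and promoters printed were chosen after the values were seen. Figures used matplotlib 3.10.9 in Python 3.11.15.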

Additional observations from a re-analysis of the deposited data

Results flagged for a closer look

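No member had a sample that stood apart from the other 3 of its group by Dixon's test. Among the members and the other named genes, 6 of 98 groups of 4 passed its critical value of 0.829, and chance passes about 1 in 20. They were Pgf in wild-type replicate 2 (0.53, the lowest), Nos3 in wild-type replicate 2 (2.86, the lowest), Sphk1 in wild-type replicate 4 (7.15, the highest), Figf in knockout replicate 3 (1.73, the highest), Svep1 in knockout replicate 3 (1.75, the highest) and Selp in knockout replicate 2 (3.48, the highest), as log2 signal minus the array's own 75th percentile.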

How the results depend on the processing

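In 23 alternatives to the processing reported, 0 of 10 members were called in each, and 219 of 230 member differences kept their sign. The 11 that changed sign were Angpt1 (0.22), Tek (0.26) and Tie1 (0.022) with the alveolar type 1 covariate, Flt4 without knockout replicate 3 (-0.15, the others without 1 sample reaching 0.34), Kdr without wild-type replicate 2 (-0.042) or knockout replicate 1 (-0.0094, the others reaching 0.19), and Vegfc with median centring (-0.00602), with array weights (-0.19), and without wild-type replicate 2 (-0.13), wild-type replicate 4 (-0.05) or knockout replicate 3 (-0.14, the others reaching 0.32). Of the other genes, Figf (0.33) and Ptprb (0.24) changed sign with the alveolar type 1 covariate, Figf (0.081) and Ptprb (0.13) with the cardiac covariate, Pgf without knockout replicate 3 (-0.011, the others reaching 0.29) and Vegfb without the 3 libraries with most cardiac signal (-0.023). The number of genes called depended strongly on the setting. It was 15 as reported, 513 with normexp background correction, 36 with median centring, 3506 with no filter on dim probes, 127 with a filter on all 8 arrays, 9 with the mean of a gene's probes, 417 with an intensity trend, 350 with array weights, 1904 with the cardiac, 1935 with the endothelial and 2 with the alveolar type 1 covariate, 1 to 19 without 1 sample and 0 without the 3 libraries with most cardiac signal. The cause was not tested. Egln3, Prkcb and Calcrl, just outside the threshold as reported, passed in 9, 8 and 7 of these alternatives. How many other genes did so is not given here. Such a position was not particular to them, since Gp1bb had the same adjusted p as Egln3 and Prkcb (limma, 0.0569). Samples of the same number did not deviate together throughout (correlations 0.13, 0.47, 0.01 and -0.29 for replicates 1 to 4). The replicate block called 46 genes and 0 members. Unadjusted, Nrp1 (0.00226), Vegfa (0.0157), Tie1 (0.0288) and Angpt1 (0.0464) had a limma p under 0.05 with this block, and the other members did not. The share of all genes under 0.05 with the block is not given here, so this is no result about the members. Without the block that share was 23.6%. With the block, the lowest adjusted p among the members was 0.0712 (limma), for Nrp1. Of genes called as reported 8 were higher and 7 lower, against 13 and 23 with median centring, and 12 and 34 with the replicate block. A block for slide or scan date was not run, because there was 1 slide. Flt4 was near the dim end of the arrays, which limits its precision.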
